A study of Nothobranchius furzeri with 15 samples.

Results

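The livers of male turquoise killifish given rotenone at 150 pM were compared with the livers of male killifish given the solvent DMSO. The comparison takes 5 libraries labelled rotenone 150 pM, numbered 8, 9, 10, 11 and 12 in the sample titles, and 5 labelled DMSO, numbered 1 to 5, which is 10 of the 15 libraries in the series. The other 5 libraries were labelled rotenone 15 pM, and their values are given only for genes printed by identifier. All fish were of GRZ, an inbred short-lived laboratory strain of Nothobranchius furzeri, and 9 weeks old. The labels give neither the route nor the length of treatment, and name no tank, family or batch, so differences of that kind and the dose cannot be told apart. Nor do they state that every library is from its own fish, and p-values therefore measure the spread between libraries, which may be partly technical.

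Rotenone is a plant compound that blocks complex I, the entry point for electrons from NADH into the mitochondrial respiratory chain. The liver relies on that chain for gluconeogenesis, ketone and urea production and the oxidation of fatty acids, and it makes most plasma proteins. Liver RNA is accordingly dominated by a small number of very abundant transcripts, so that a shift in a few of them moves the share left for all other genes.

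The deposited identifiers carry no gene symbols, and 0 of the 26739 was found among the 38438 genes of the reference table used here. No gene can therefore be given a name or a role, pathway and cell type lists could not be applied, and the liver label could not be checked against marker genes. The results are described by size, direction, abundance and library, and 4 identifiers are printed by a set rule.

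Total counts were 22185038 to 30544293 in the 150 pM libraries and 25160285 to 35672589 in the DMSO libraries. For the 20 pairs of libraries within a group, chi-square per degree of freedom was 46.7 to 327, so none was treated as a copy of another. On the first principal component of log2 CPM (counts per library, scaled so that libraries can be compared), which held 38.7% of the variance, the 150 pM libraries lay between 37.0 and 55.6 and the DMSO libraries between -68.7 and -27.0. The second component held 17.2%. On it, 150 pM libraries 8 and 10 lay at 51.6 and 49.4, 150 pM libraries 9, 11 and 12 at -26.5, -41.7 and -37.0, and the DMSO libraries between -8.23 and 17.8. Libraries 8 and 10 therefore stand apart from the rest of their group along an axis on which the DMSO libraries lie in between. Their scaling factors also differed, at 1.14 and 1.10, against 0.882 to 0.975 in the other 3 libraries of 150 pM. The DMSO libraries had factors of 0.970 to 0.977, apart from 1.13 in library 1. The main results below are also given without libraries 8 and 10.

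The first question was which liver transcripts differed at 150 pM. Of 15412 genes tested, 1812 passed the threshold, which is 11.8% (edgeR quasi-likelihood test, adjusted p under 0.05). They were split into 760 genes that rose (4.93%) and 1052 that fell (6.83%). Falls had a median log2 fold change of -1.26, with quartiles of -2.32 and -0.66, and 622 were lower by a factor of 2 or more. Rises had a median of 0.76, with quartiles of 0.53 and 1.19, and 269 were higher by at least that factor. At 4-fold or more there were 342 falls and 67 rises, and at 8-fold or more 150 falls and 34 rises. In bulk liver, fewer cells of a type and less RNA per cell cannot be told apart.

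That falls outnumbered rises depended on how the libraries were scaled and on which were used. Rises made up 41.9% of the calls with TMM factors, 32.2% of 1054 calls with library totals, 46.9% of 1868 with RLE factors and 52.5% of 1962 with upper-quartile factors. The last of these turned the split round, with 1030 rises and 932 falls. With TMM it also turned round without 150 pM libraries 9 and 11, with 663 rises and 604 falls, and without libraries 9 and 12, with 558 rises and 504 falls. DESeq2 called 3084 genes, of which 50.5% rose. The scaling moved the median log2 fold change of all genes by little, from 0.00 with TMM to -0.01 with library totals and 0.04 with upper-quartile factors. In all 3 of the other scalings of the same test, at least 147 falls and at most 35 rises reached 8-fold, so the excess of large falls over large rises did not turn round. The number of large rises changed with the test, with the filter and with single libraries. It was 3 with limma voom, 5 with voom and quality weights and 8 with 1 surrogate variable, against 144 to 149 large falls. A filter of 1 CPM in 5 libraries gave 16, against 108 large falls. DESeq2 gave 53 large rises against 148 large falls, and no filter beyond a count above 0 gave 71 against 217. The fit of all libraries except 15 pM library 4 gave 60 against 176. With 1 library left out the number of large rises was 6 to 68, against 103 to 220 large falls.

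**Figure D1:**
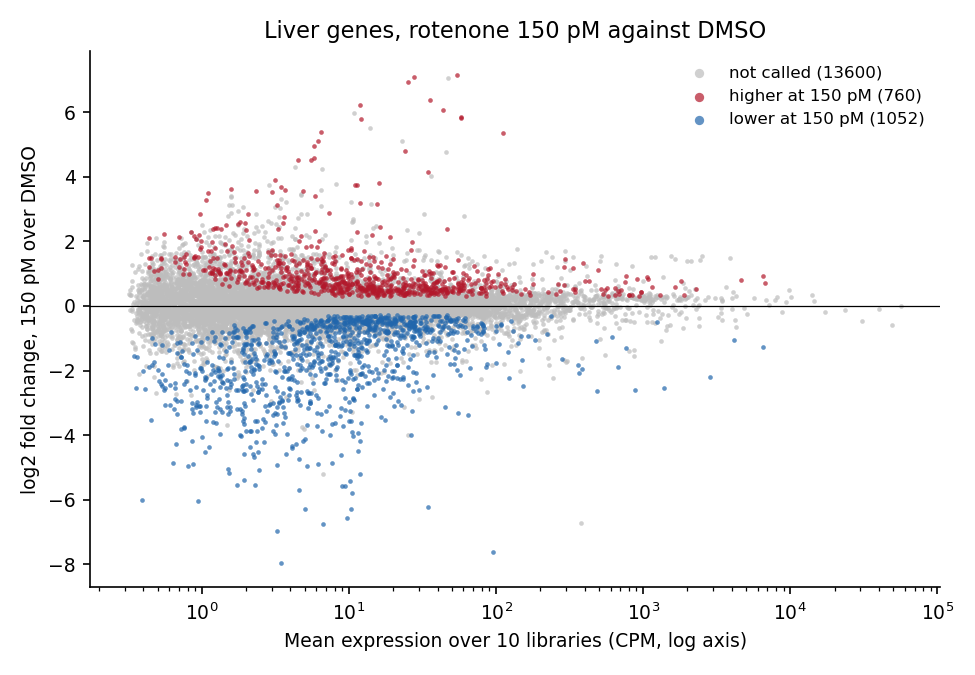
Each point is 1 of 15412 genes, with its mean CPM over the 10 libraries on a log axis and its log2 fold change, 150 pM over DMSO, on the vertical axis. The 760 genes that rose are red, the 1052 that fell are blue and genes not called are grey. Large falls extend below -4 mostly among genes under 100 CPM, and the called genes above 1000 CPM lie closer to 0.

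The groups did not overlap at all in 1771 of the genes tested (11.5%), with all 5 libraries of 150 pM above all 5 of DMSO in 739 (4.79%) and below them in 1032 (6.7%). Of the called genes, 515 of the 760 rises and 823 of the 1052 falls were separated in this way. The test and the separation use the same values, so these counts only describe the called genes.

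Calls were spread over the whole range of abundance, and their direction changed along it. Below 1 CPM, 7.08% of 1568 genes were called and 31.5% of these calls were rises. Between 1 and 10 CPM, 12.03% of 7001 genes were called, 323 as rises and 519 as falls. Between 10 and 100 CPM, 12.8% of 5948 genes were called, 337 as rises and 426 as falls. Rises outnumbered falls in the abundant classes, with 54 against 26 among the 747 genes between 100 and 1000 CPM. Above 1000 CPM, 148 genes held 58.3% of the scaled counts, and 11 rose and 5 fell. With library totals in place of TMM these splits were 28 rises against 25 falls between 100 and 1000 CPM and 9 against 7 above it, with upper-quartile factors 99 against 23 and 30 against 4. Without DMSO library 2 they were 12 against 15 and 4 against 3, so the excess of rises between 100 and 1000 CPM turned round without that library. Without 150 pM libraries 8 and 10 there were 32 rises against 16 falls between 100 and 1000 CPM. Above 1000 CPM there were then 4 rises and 0 falls by edgeR, with 6 falls at an unadjusted p under 0.05. Limma voom likewise called 4 rises and 0 falls there, and DESeq2 called 61 rises and 4 falls. From the lowest class to the highest, the median log2 fold change of the rises was 1.49, 0.995, 0.60, 0.52 and 0.72, and that of the falls -2.39, -1.70, -0.76, -1.17 and -1.28. The smallest medians were thus in the middle classes.

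Among the most abundant transcripts the rises were modest, at log2 fold changes of 0.33 to 0.93, and the falls ranged from -2.54 to -0.51. The rise with the smallest adjusted p in this class averaged 8500 ± 1113 CPM at 150 pM and 4474 ± 583 CPM in DMSO (SD, n = 5 each), or a log2 difference of 0.93 (SE 0.13; adjusted p = 0.0025 by edgeR). Its lowest library of 150 pM, at 7383 CPM, lay above its highest DMSO library, at 5118 CPM. The deepest fall in the class averaged 410 ± 264 CPM at 150 pM and 2379 ± 1644 CPM in DMSO (SD, n = 5 each), or a log2 difference of -2.54 (SE 0.58; adjusted p = 0.021 by edgeR). In this gene the groups overlapped, since libraries of 150 pM reached 860 CPM and those of DMSO went down to 541 CPM. For most abundant genes the data bound the change: in 107 of the 148, the 95% interval of the log2 fold change lay within 2-fold in both directions. The same held for 83.2% of genes between 10 and 100 CPM, 62.4% between 1 and 10 CPM and 26.8% below 1 CPM, where the median SE was 0.38.

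The fall with the highest mean expression was Nfu_g_1_002596. It stood at 2305, 2831, 3228, 5616 and 4940 CPM in 150 pM libraries 8 to 12, against 9003, 8860, 6508, 13384 and 8093 CPM in DMSO libraries 1 to 5. Every library of 150 pM lay below every DMSO library, and libraries 8, 9 and 10 were the lowest. The log2 fold change was -1.28 (SE 0.27; adjusted p = 0.0171 by edgeR). The call held with each of the 10 libraries left out in turn, with log2 fold changes between -1.46 and -1.10. Without libraries 8 and 10 together the fold change was -1.01 and the call was lost (edgeR adjusted p = 0.0658), and it passed in 4 of the 10 fits that leave out a pair of 150 pM libraries. In the 15 pM group, scaled with all 15 libraries, the gene ranged from 5980 to 10903 CPM, a range that overlaps DMSO.

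Of the called genes averaging 5 CPM or more, Nfu_g_1_019655 fell most. It was at 1.91, 0.579, 0.238, 0.965 and 1.12 CPM in 150 pM libraries 8 to 12, against 247, 385, 126, 33.4 and 155 CPM in DMSO libraries 1 to 5. As a ratio, though not in CPM, the gap between the groups is wider than the spread within either. DMSO library 4 was well below the other DMSO libraries. The log2 fold change was -7.62 (SE 0.78; adjusted p = 0.00124 by edgeR). All 10 fits with 1 library left out and all 10 with a pair of 150 pM libraries left out called it. Without libraries 8 and 10 it was -7.69 (edgeR adjusted p = 0.00669), so the fall was present in the other libraries of 150 pM as well. As every library of 150 pM held low values, leaving out any of them could hardly have undone this fall. The 15 pM libraries spanned 0.148 to 125 CPM, the lowest of them below the 150 pM range and the highest inside the DMSO range.

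Both printed rises rest on libraries 8 and 10 for their size. They also pass the minimum mean of 5 CPM only through libraries 8 and 10, since every other library of the 10 held under 1 CPM. The rule that picked them thus favours genes of this kind. Nfu_g_1_006927, the largest rise under the same minimum, reached 266 and 271 CPM in libraries 8 and 10, but stood at 0.95, 0.891 and 0.624 CPM in libraries 9, 11 and 12. DMSO libraries 1 to 5 held 0.919, 0.593, 0.801, 0.679 and 0.773 CPM. In libraries 9, 11 and 12 the gene was thus at the level of DMSO, and the 15 pM libraries, at 0.42 to 1.04 CPM, were there as well. Its log2 fold change was 7.14 (SE 1.87; adjusted p = 0.0347 by edgeR), and 0.16 without libraries 8 and 10 (edgeR adjusted p = 0.754). The call was also lost without any single DMSO library and without library 8 or 10 alone, with edgeR adjusted p-values up to 0.0917, and with limma voom (adjusted p = 0.488).

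Nfu_g_1_006340 was chosen as the largest rise that was separated in every library and still called without libraries 8 and 10. It was at 26.1 and 31.8 CPM in libraries 8 and 10, and at 0.579, 0.854 and 0.873 CPM in libraries 9, 11 and 12. DMSO libraries 1 to 5 held 0.348, 0.445, 0.28, 0.264 and 0.407 CPM. All 5 libraries of 150 pM were above DMSO, libraries 8 and 10 by a far wider margin than the others. The log2 fold change was 5.09 (SE 1.26; adjusted p = 0.0285 by edgeR), and without libraries 8 and 10 it was 1.16 (edgeR adjusted p = 0.0492). At 15 pM the gene ranged from 0.407 to 2.45 CPM. This call too was lost without any single DMSO library and without library 10, with edgeR adjusted p-values up to 0.0722, and with limma voom (adjusted p = 0.276).

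**Figure D2:**
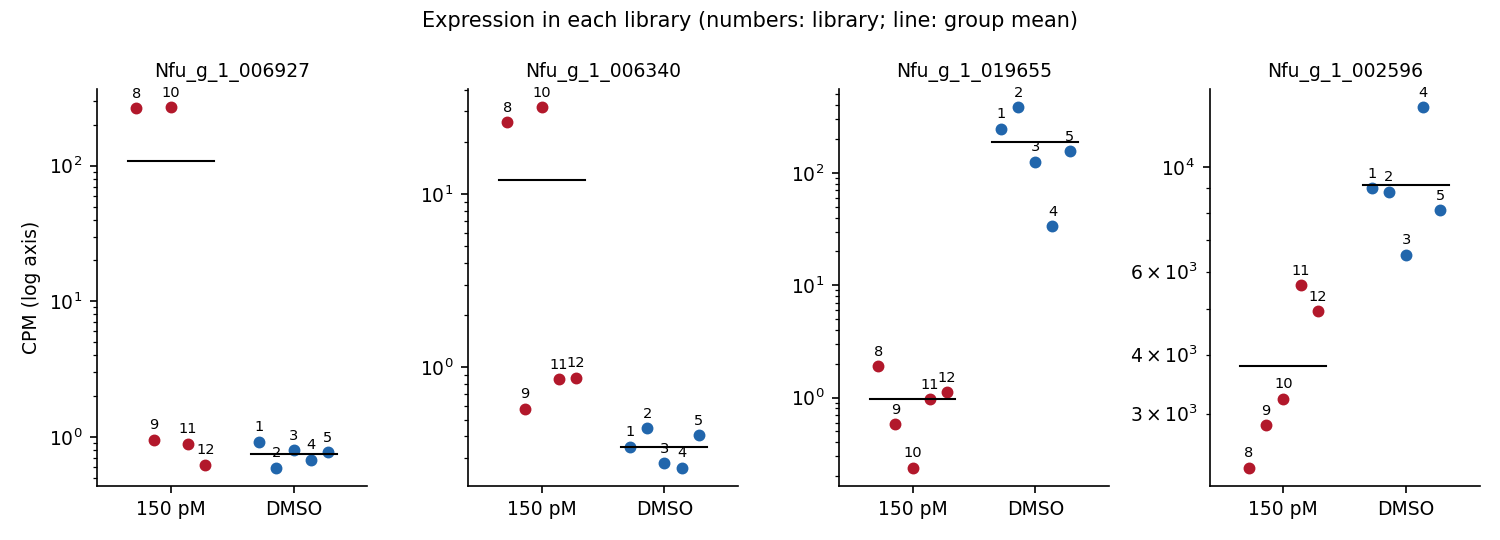
CPM on a log axis in each library of 150 pM (left, red) and DMSO (right, blue) for the 4 genes described above, with the library number beside each point and a line at the group mean. In the rises Nfu_g_1_006927 and Nfu_g_1_006340, libraries 8 and 10 stand far above the other libraries of 150 pM, while in the falls Nfu_g_1_019655 and Nfu_g_1_002596 all libraries of 150 pM lie below DMSO.

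The large changes as a set are described here, for genes picked by the size of their change. Over the 34 rises of at least 8-fold, the median level was 31.0 and 29.4 CPM in libraries 8 and 10, and 0.62, 1.24 and 1.75 CPM in libraries 9, 11 and 12. DMSO libraries had medians between 0.445 and 0.641 CPM over the same genes. In 30 of the 34, libraries 8 and 10 were the highest libraries of their group, as they were in 32 of the 150 falls of at least 8-fold. The same share over all genes tested is not given. In 7 of the 34 all 5 libraries of 150 pM were above DMSO, against 4.79% of all genes tested. Over the 150 falls of at least 8-fold, the medians were 0.517, 0.207, 0.306, 0.26 and 0.416 CPM in libraries 8 to 12. DMSO libraries 1 to 5 had medians of 6.38, 9.53, 3.46, 2.47 and 4.01 CPM over these genes. In 146 of the 150 falls all 5 libraries of 150 pM lay below all DMSO libraries, against 6.7% of all genes tested. The genes were picked from the same values, so these counts only describe them. Most large rises were thus carried by libraries 8 and 10 and large falls by the whole group, with DMSO library 2 the highest of the controls. A few high libraries can raise a group mean to any height, while an 8-fold fall in it needs low values in all 5 libraries. The measure thus favours such a contrast between rises and falls, and how far it sets the contrast was not tested.

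**Figure D3:**
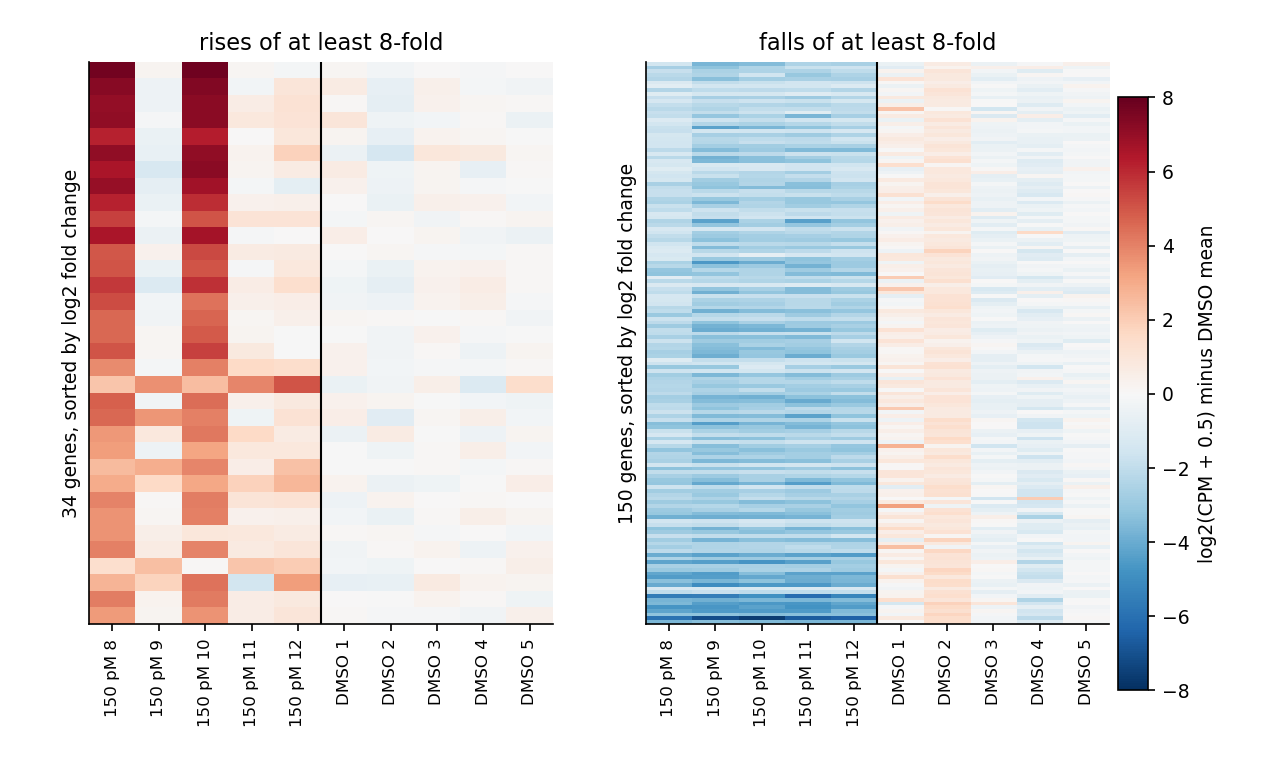
Log2 of CPM plus 0.5, minus the DMSO mean of the same gene, for the 34 rises and the 150 falls of at least 8-fold; each row is a gene and each column a library, 150 pM left of the line and DMSO right of it. Red in the left panel is concentrated in libraries 8 and 10, and blue in the right panel covers all 5 libraries of 150 pM.

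The next question was how far libraries 8 and 10 set the result as a whole. Without both, 1236 genes were called, 431 as rises and 805 as falls. Leaving out any pair of libraries lowers the power of the test, so the other 9 pairs of 150 pM libraries give the scale. They gave 556 to 1619 calls, and libraries 8 and 10 ranked sixth from the lowest of the 10 pairs. Fewest genes remained without libraries 10 and 12 (556) and most without libraries 11 and 12 (1619). Of the 1812 genes, 916 were still called without libraries 8 and 10, and 320 genes were called that had not been before. Over the 10 pairs the number still called ran from 507 to 1041. By the number of calls with edgeR and TMM, this pair lies in the middle of the 10. In other settings only this pair was left out. With library totals, 1110 genes were called without it, against 1054 with all 10 libraries. With RLE factors the counts were 1195 against 1868, with DESeq2 2421 against 3084 and with limma voom 809 against 1759. Whether leaving out the pair lowered the number of calls thus depended on the scaling.

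By the size of rises, this pair differed from the other 9. Without libraries 8 and 10, 3 of the 34 large rises were still at least 8-fold and 19 were under 2-fold. Without any other pair, 30 to 33 of them were still at least 8-fold and 0 were under 2-fold. The 34 were picked by their size with libraries 8 and 10 in the group mean. These libraries were the highest of their group in 30 of the 34, so this contrast largely repeats the choice of genes. How many genes were called as rises of at least 8-fold was not particular to the pair. There were 6 without libraries 8 and 10, 4 without libraries 10 and 12 and 103 without libraries 9 and 11. Of the 150 large falls, 145 remained at least 8-fold without libraries 8 and 10, and 116 to 147 without another pair. Leaving out a pair thus took some falls under 8-fold, while 0 of the 150 were under 2-fold in any of these fits. An 8-fold fall needs low values in every library of 150 pM, so leaving out a pair of them could hardly have undone these falls. No pair of DMSO libraries was left out. Over all 760 rises the median log2 fold change was 0.70 without libraries 8 and 10, the lowest of the 10 pairs, against 0.74 to 0.79 without another pair. Of these rises 758 were still above 0 and 315 were still called, against 152 to 454 called without another pair. Libraries 8 and 10 were the highest of their group in 194 of the 760 rises (25.5%), followed by libraries 11 and 12 in 108 (14.2%). Library 10 was the highest of all 10 libraries in 250 rises (32.9%). The same shares over all genes tested are not given, so these shares cannot be read as particular to the rises. The 1052 falls kept their sign in every one of these fits, with a median of -1.30 without libraries 8 and 10.

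The position of each library was also counted in the called genes, which were chosen for such a difference. Among the 760 rises, library 8 was above the whole DMSO range in 732 genes, library 9 in 658, library 10 in 730, library 11 in 669 and library 12 in 733. Among the 1052 falls, these libraries were below the whole DMSO range in 968, 1010, 991, 1015 and 1007 genes. Over all genes tested, a library of 150 pM was above the DMSO range in 24.9% to 26.2% and below it in 27.1% to 30.6%. In 5 rises and 2 falls, libraries 8 and 10 and no other library of 150 pM left the DMSO range, against 0 rises and 0 to 2 falls for each other pair. Among all genes tested, 99 were at least 4-fold higher in both libraries 8 and 10 than in each of the other 3, with at least 5 CPM in both. Of these 99 genes, 29 were called as rises, where 4.93% of all genes tested were. The calls use the same values, so this only describes the 99. The 29 are 3.82% of all rises. For the other 9 pairs of libraries, the number of genes at least 4-fold higher in this way was 0 to 11. Across all tested genes, library 8 was at least 4-fold above the highest DMSO library (taken as at least 1 CPM) in 173, library 10 in 136, and libraries 9, 11 and 12 in 4, 36 and 26. Libraries 8 to 12 were at least 4-fold below the lowest DMSO library, where it held at least 1 CPM, in 100, 281, 221, 248 and 169 genes. In that direction library 8 had the fewest and library 9 the most.

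**Figure D4:**
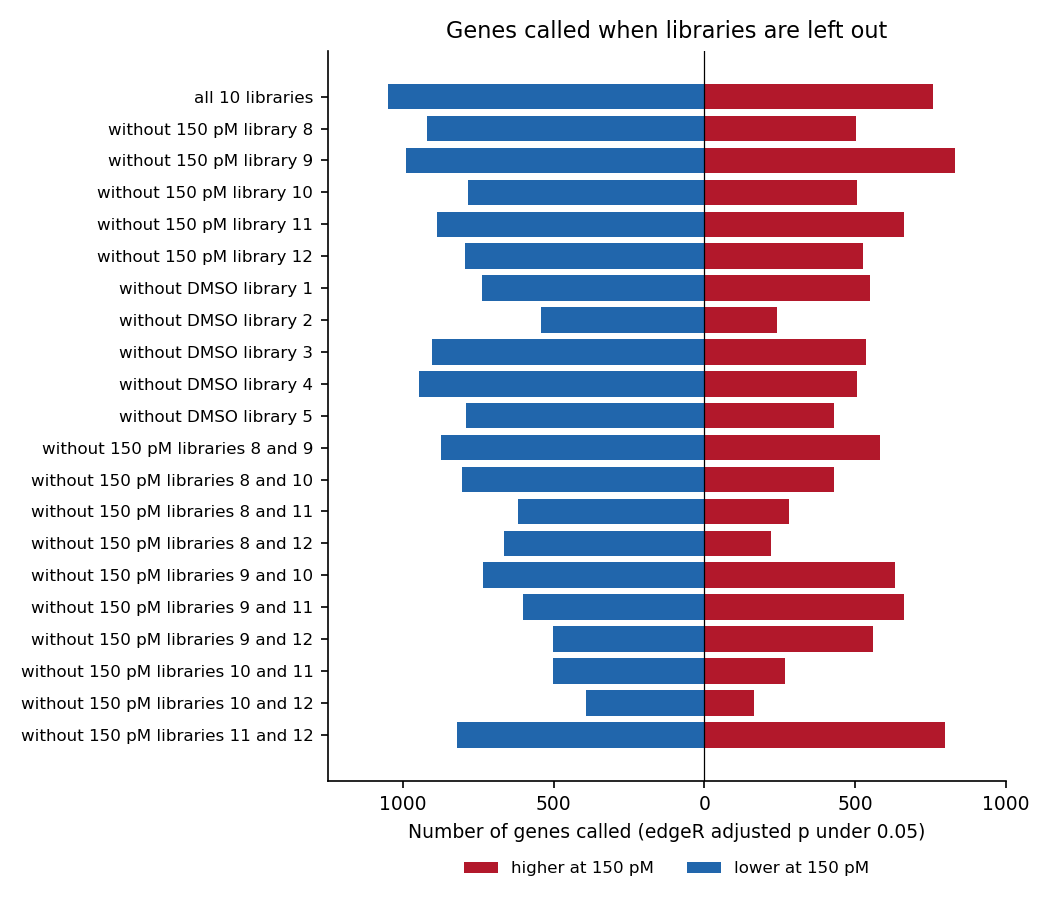
Number of genes called as lower (blue, to the left) and higher (red, to the right) at 150 pM with all 10 libraries, with each library left out and with each pair of 150 pM libraries left out. Among the pairs the bars are shortest without libraries 10 and 12 (556 genes), and among single libraries without DMSO library 2 (783 genes). The 1236 genes called without libraries 8 and 10 are in the middle of the pairs.

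A control library moved the number of calls more than any single library of 150 pM did. Without DMSO library 2, 783 genes were called, 242 as rises and 541 as falls, of which 776 were among the 1812. Leaving out another single library gave 1221 to 1823 calls. DMSO library 2 was the highest of the 10 libraries in 528 of the 1052 falls (50.2%), followed by DMSO library 1 in 306. In the 760 rises, DMSO library 1 was the lowest of the 10 in 223, library 3 in 177 and library 2 in 159. For these counts, too, no share over all genes tested is given. Large rises were close to the threshold, with a median edgeR adjusted p of 0.0395 over the 34, and 5 or 6 of them were still called without any 1 of the DMSO libraries, although all 34 stayed at least 8-fold. Large falls had a median edgeR adjusted p of 0.0025, and 142 to 150 of the 150 were still called without any single DMSO library. Their size did depend on single controls. Without DMSO library 2, 106 of the 150 stayed at least 8-fold, without DMSO library 1 131 did, and without another DMSO library 147 to 149.

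All 10 fits with 1 library left out called 760 of the 1812 genes, 227 of them rises and 533 falls. That is 29.9% of the rises and 50.7% of the falls. These genes had median log2 fold changes of 0.92 for rises and -2.10 for falls, and they included 141 of the 150 large falls but 4 of the 34 large rises. A further requirement, that all 10 fits without a pair of 150 pM libraries call the gene too, left 370 genes, 91 rises and 279 falls. In all 370 the groups did not overlap, against 11.5% of all genes tested. The 370 were chosen from the same values, so this only describes them.

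Whether the called directions hold in libraries that the call did not use was read from 25 fits, each leaving out 1 library of 150 pM and 1 of DMSO. Each fit called 469 to 1396 genes, and the sign of the difference between the 2 libraries left out was compared with the called direction. The sign matched in a median of 90.4% of the called genes (range 73.8% to 98.7%). Over all genes tested, the left-out library of 150 pM was the higher in 46.2% to 53.1% of them. That is not the same measure. The match with the fitted sign over all genes tested is not given, so the match in called genes has no background here. The median match was 92.9% for falls and 86.6% for rises. With library 8 left out the median match was 90.6%, and with library 10 it was 90.6% as well. It was 86.6% with library 9, 88.7% with library 11 and 95.2% with library 12. Rises called without library 9 matched least in it, with a median of 77.9% and 61.5% against DMSO library 1. The medians of libraries 8 and 10 thus lie between those of the other 3 libraries. With library 8 left out, library 10 was still in the fit, and the reverse. These medians therefore cannot show how far the pair sets the calls. The fits share most of their libraries and genes are not independent, so these shares carry no test.

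**Figure D5:**
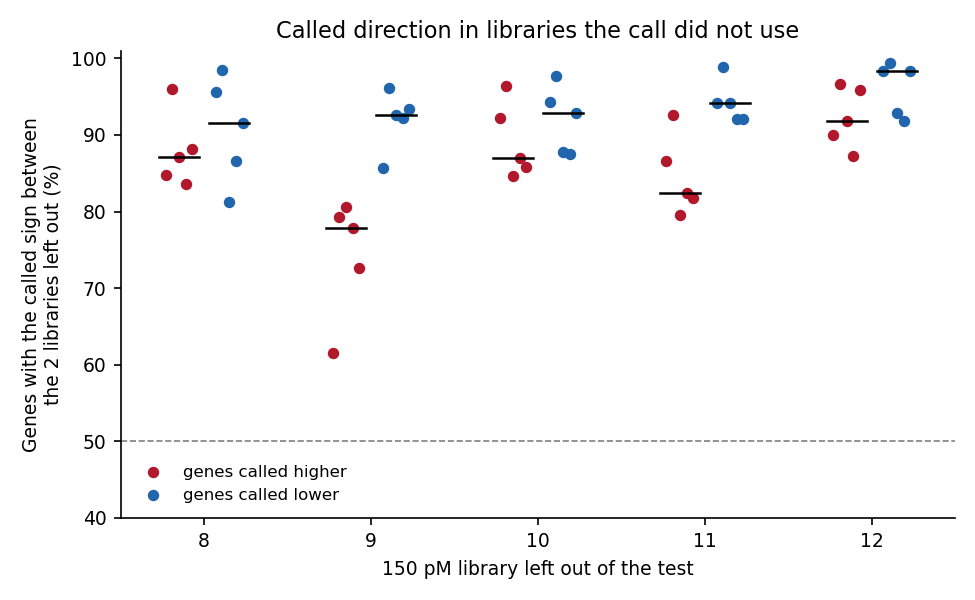
Share of genes called higher (red) and lower (blue) whose difference between the libraries left out had the called sign, by the 150 pM library left out; each point is 1 of the 5 DMSO libraries left out with it, the black line is the median and the dashed line is 50%. The lowest points are rises met in library 9, down to 61.5%, and all points lie above the dashed line.

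A measure of composition gave no difference that passed its test. The 10 most abundant genes of a library took 21.2%, 25.3%, 19.1%, 29.8% and 27.8% of its counts in 150 pM libraries 8 to 12, against 27.0%, 29.8%, 28.5%, 27.3% and 28.7% in DMSO libraries 1 to 5. Libraries 8 and 10 were the lowest of the 10 and library 11 was the highest. The means differed by -3.63 percentage points (exact permutation test, two-sided, p = 0.143). Without libraries 8 and 10 the difference was -0.63 points (exact permutation test, two-sided, p = 0.643). It passed the threshold only without library 11, at -4.93 points (exact permutation test, two-sided, p = 0.0476).

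The trend with gene length differed between the groups in a test not adjusted for the number of measures. Each library was given the Spearman correlation, over all tested genes, between gene length and its log2 departure from the mean of the 10 libraries. It was 0.097, -0.026, 0.10, 0.088 and 0.012 in 150 pM libraries 8 to 12, against -0.039, -0.071, -0.17, 0.00035 and -0.084 in DMSO libraries 1 to 5. The ranges overlap, with library 9 inside the DMSO range. The group means were 0.054 ± 0.058 at 150 pM and -0.072 ± 0.063 in DMSO (SD, n = 5 each), which differ by 0.13 (p = 0.0159 in a two-sided exact permutation test, whose smallest value for 5 against 5 is 0.00794). Without libraries 8 and 10 the difference was 0.097 and missed the threshold (exact permutation test, two-sided, p = 0.0714). With fewer libraries the smallest value this test can give is larger, so this loss cannot be told apart from lower power. The permutation p-values were not adjusted for the number of measures. The median length was 3405 bases in the genes that rose, 2387 bases in those that fell and 2832 bases in those not called. With each library's trend with length removed, 1820 genes were called, 822 as rises and 998 as falls, and 1613 of them were among the 1812. The part of these length trends in the calls was not tested further.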

How the data were processed

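RNA was counted in liver libraries made with the TruSeq RNA kit v2, per the labels' protocols; it is a kit without strand marking. Per the submitters' processing notes, the tools were featureCounts 1.4.6-p4, STAR 2.4.1d and CASAVA 1.8.2, with no role stated; a genome build and annotation are not named in these notes or labels. The authors deposited whole-number read counts per gene, not normalized. As the kit marks no strand, counts of overlapping and antisense genes are uncertain. Counts of near-identical genes are uncertain as well. The deposited RPKM values (reads scaled by gene length and library total) were checked against the counts: library totals taken in turn down the rows gave 1 gene length within 0.2% for 100% of 104835 values, against 7.91% with each library's own total. They were used only to recover gene lengths.

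The 10 libraries were fitted in R 4.3.3 with edgeR 4.0.16 and its two-sided quasi-likelihood test, with TMM scaling, no covariate and Benjamini-Hochberg adjustment. The filterByExpr function (minimum count 10) kept 15412 genes, with 99.9% of the counts. The SE of a log2 fold change was not estimated by the fit. It was taken as the absolute log2 fold change divided by the square root of the test's F value. The 95% intervals were built from this SE and a t quantile. Alternatives used limma 3.58.1, DESeq2 1.42.0 and sva 3.50.0, and permutation tests used scipy 1.17.1. Printed identifiers are, among called genes with at least 5 CPM on average, the largest rise, the largest rise separated in all libraries and called without libraries 8 and 10, the largest fall and the most abundant fall. The libraries, rules and tests were chosen with earlier results of these data known.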

Additional observations from a re-analysis of the deposited data

Results flagged for a closer look

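DMSO library 1 stood apart from the other 4 DMSO libraries in 4 values. Its total count was 35672589, against 25160285 to 27649168 in the others. Its TMM scaling factor was 1.13, against 0.970 to 0.977. Its 100 most abundant genes took 51.3% of its counts, against 53.9% to 54.9%. Its effective number of genes (the exponential of the entropy of its count shares) was 825, against 659 to 685. In each case its gap to the nearest of the others, divided by the range of the group, was above 0.71, the 95% critical value of Dixon's test for 5 values. The same was asked of 38 groups of 5 values, and chance alone flags about 1 in 20. Without DMSO library 1, 1289 genes were called in place of 1812. Libraries 8 and 10 of 150 pM were not flagged in this way, since each has the other as a near neighbour.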

How the results depend on the processing

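No paired analysis was possible because the titles number the DMSO libraries 1 to 5 and the 150 pM libraries 8 to 12, so the groups share no replicate number. Leaving out single libraries gave 783 to 1823 calls, 242 to 833 rises and 541 to 990 falls, a top-10 share difference of -4.93 to -2.24 points and a length difference of 0.10 to 0.15. All 15 libraries in 1 fit gave 896 calls (338 rises, 558 falls), the same without 15 pM library 4 gave 1942, library totals in place of TMM 1054 (339 rises) and DESeq2 3084 (1558 rises). With pairs of 150 pM libraries left out, calls were 899 without 8 and 11 (281 rises, 618 falls), 887 without 8 and 12 (221, 666), 1062 without 9 and 12 (558, 504), 772 without 10 and 11 (268, 504) and 556 without 10 and 12 (163, 393). Rises were 431 without 8 and 10, and without 9 and 11 there were 663 rises and 604 falls. The length difference was 0.097 without 8 and 10 (exact permutation p = 0.0714). The cause of these shifts was not tested, beyond the fewer libraries in a fit. Without libraries 8 and 10, settings chosen after seeing the data gave 2421 calls with DESeq2, 809 with limma voom, 1110 with library totals and 1195 with RLE factors. With the 500 genes of smallest p in each fit, the median match in libraries left out was 93.6%. Precision is limited by 5 libraries per group, and below 1 CPM by counts.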
